A study of Homo sapiens with 372 samples.

Results

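The cells described here are single A2780 cells, an established human ovarian carcinoma line, that had been exposed to 75 µM celecoxib for 16 h. They were compared with untreated cells of the same line. Members were taken by condition label from the deposited expression table, which gave 61 celecoxib 16 h cells and 46 control cells out of 338 cells in 6 conditions. The cells were taken by label and not by a measured value, though this part was chosen with earlier results of these data known. In the other conditions the cells had received celecoxib for 2 h at the same dose, 5 nM paclitaxel for 16 or 48 h, or both drugs together for 16 h. All of the conditions used the 1 line, and cells were captured on the Fluidigm C1 microfluidic system and copied with SMART-seq2, a full-length method for polyadenylated RNA. Each condition was 1 capture run, so cells are not replicates, the drug and the run cannot be told apart, and no test between conditions was made. SDs below are spreads over cells.

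Celecoxib is an anti-inflammatory drug that inhibits cyclooxygenase 2, and at high doses it also acts on targets outside prostaglandin synthesis. In the integrated stress response, kinases that sense amino acid shortage, misfolded protein in the endoplasmic reticulum or other stress phosphorylate the translation factor eIF2. General translation then slows while ATF4 is translated more, and ATF4 with its partners such as CHOP (DDIT3) turns on genes for amino acid synthesis, transport and tRNA charging. Genes for mitosis and DNA replication, in contrast, are switched on in cycling cells, through E2F factors before S phase and through MuvB complexes before mitosis.

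Values are E-values, log2(N/10 + 1), in which N is the TPM of a gene after the authors scaled each cell to a spike-in RNA. Of the cells that the labels list, 61 of 67 celecoxib 16 h cells (91.0%, exact Clopper-Pearson 95% interval 81.5 to 96.6%) and 46 of 57 control cells (80.7%, interval 68.1 to 90.0%) were in the table, and these intervals cover counting error only. Reads per cell are unknown, so depth is described by the genes with an E-value above 0, whose median was 6329 per celecoxib 16 h cell (5021 to 7084) and 6630 per control cell (4746 to 7854). The authors' deposited annotation gave the suppressive state to all 61 celecoxib 16 h cells and to 1 of the 46 control cells. The authors had trained this classification with celecoxib 16 h cells as the repression state and control cells as the control-like state. The split therefore follows in part from the labels and is not a separate reading of the cells. The S numbers that end the sample descriptions did not overlap between the groups, with 220 to 286 for celecoxib and 289 to 344 for control. As a check of the line, vimentin (VIM) had an E-value above 0 in 35 of 46 control and 44 of 61 celecoxib 16 h cells, and keratin 18 (KRT18) in 11 and 16. Of markers of other cells, LYZ was above 0 in 17 control and 37 celecoxib 16 h cells at a mean E-value of 0.15 and 0.12, and COL1A2 in 8 and 20 cells at 0.45 and 0.48. The part of these low levels in the results was not tested. Of the markers sought, the table held only 2 of 8 for the line, 1 of 5 for immune cells and 1 of 4 for fibroblasts. It held 0 of 3 for endothelial and 0 of 2 for red cells, so the check of the line is limited.

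The celecoxib 16 h cells held less RNA relative to the spike-in than the control cells. The sum of N over all 9664 genes, as log2 with the control median at 0, ran from -2.38 through a median of -1.52 to -0.72 in the 61 celecoxib 16 h cells (SD 0.43). In the 46 control cells it ran from -2.13 to 0.80 (SD 0.51). The control median was thus 2.87 times the celecoxib 16 h median. The ranges overlapped through 2 control cells that lay at or below the highest celecoxib 16 h cell, and 57 of 61 celecoxib 16 h cells lay at or above the lower of those 2. Such a shift moves every gene, and a spike-in difference between runs would do the same. Each gene was therefore also compared after the linear values of every cell had been rescaled to the same total, and differences on that scale are relative to the other RNA of the cell.

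On the spike-in scale, 37 genes (0.383% of 9664) had a mean E-value more than 1.5-fold, or 0.58 on the log2 scale, above the control mean, and 4241 (43.9%) were as far below it. At the same total, 713 genes rose (7.38%) and 768 fell (7.95%), so that 48.1% of the genes past the limit had risen. This share was 60.2% when cells were rescaled by the median ratio over genes, with 899 up and 595 down. The median difference over all genes was -0.48 on the spike-in scale and 0.03 at the same total. All 37 genes up on the spike-in scale were also up at the same total, and all 768 genes down at the same total were also down on the spike-in scale. A further 644 genes were up at the same total while lying within the limit on the spike-in scale, and 32 were up on one scale and down on the other. Falls at the same total were concentrated among abundant genes, with 552 of the 2416 genes of highest control level (22.8%), 195 of the next 2416 (8.07%), 21 of the next (0.869%) and 0 of the 2416 lowest, where the E-value scale leaves little room to fall.

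**Figure D1:**
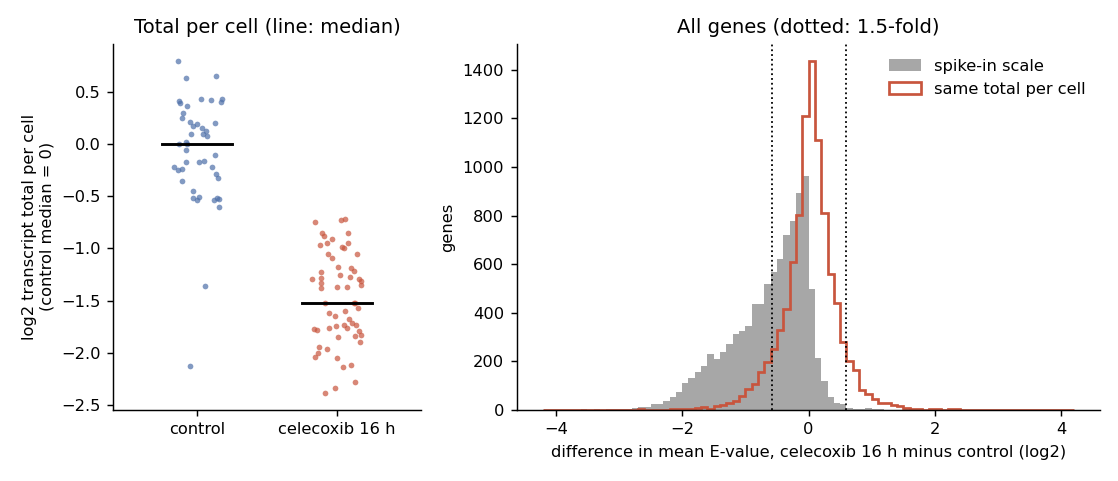
Left, log2 transcript total per cell (vertical axis, control median at 0) in 46 control and 61 celecoxib 16 h cells, with the median as a line. Right, number of genes by their difference in mean E-value, celecoxib 16 h minus control, on the spike-in scale (grey) and at the same total per cell (red outline), with dotted lines at 1.5-fold. The celecoxib 16 h cells centre on -1.52, and the grey distribution, with its median at -0.48, moves to a median of 0.03 once the totals are made equal.

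Genes of the integrated stress response were among those with large rises. The list of these genes, like the other gene lists below, was chosen with earlier results of these data known. Shares and medians of a list set beside those of all genes are therefore descriptive, here and below. They are not independent evidence that a list stands out. Of the 35 list members in the table, 26 rose and 1 fell at the same total, against 7.38% and 7.95% of all genes, with a list median of 0.94 against 0.03 over all genes. On the spike-in scale, where 0.383% of all genes rose, 12 members rose and 6 fell, and the list median was 0.20 against -0.48. Among genes above 0 in 30% or more of both groups' cells, the list held 5 of the 10 largest rises at the same total (DDIT4, DDIT3, ASNS, SLC3A2 and SARS) and 3 of the 10 on the spike-in scale. In genes above 0 in under 30% of control cells, the 5 largest rises were those of the list members GDF15, TRIB3, CHAC1 and SLC7A11 and of ASS1, which is not on the list. The authors' filter kept such genes only if more than 30% of cells of another condition held them. That filter favours rises among them.

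The sequence to which ATF4 and CHOP bind together is shown first, because several of these genes hold it. The letters TGATGNAA, on either strand, were found within the 250 bases before the RefSeq start in 5 of the 32 list members with a promoter in the table (15.6%), in 1.29% of the 7970 promoters of all genes measured and in 3.19% of all 27305 RefSeq promoters. The 5 members that hold it all rose at the same total, as did 24 of the 32 in all. Below are 30 bases around each match, 5′ to 3′ on the strand of the gene, in RefSeq's GRCh38.p14, with the match in capitals.
ASNS: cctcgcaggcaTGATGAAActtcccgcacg
CHAC1: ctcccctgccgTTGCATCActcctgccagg
IARS: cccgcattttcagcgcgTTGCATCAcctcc
AARS: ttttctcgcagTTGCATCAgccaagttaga
HERPUD1: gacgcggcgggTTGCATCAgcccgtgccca
The ASNS stretch lies at chr7:97872458-97872487 on the minus strand, 79 to 50 bases before the start, and reads on the strand of the gene. The other matches read on the opposite strand, as TTGCATCA, at chr15:40953251-40953280 (plus) for CHAC1, chr9:92293698-92293727 (minus) for IARS, chr16:70289675-70289704 (minus) for AARS and chr16:56931955-56931984 (plus) for HERPUD1. GENCODE version 44 places exons of a transcript of the same gene over the first 4 stretches, also of DDX19B on the other strand over that of AARS, and no exon over that of HERPUD1. A match of letters is a description and not evidence of binding.

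DDIT4 (ENSG00000168209.4, hg38 chr10:72273919-72276036, plus strand), an inhibitor of mTORC1 that is induced by stress, showed the largest rise at the same total of all genes above 0 in 30% or more of both groups' cells. Its E-value ran from 0 through a median of 0.10 to 6.56 in control cells, and from 0.06 through 4.59 to 6.37 in celecoxib 16 h cells, with means of 1.40 ± 1.72 and 4.19 ± 1.34 (SD). The difference was 2.78 on the spike-in scale and 3.77 at the same total. DDIT4 was above 0 in 23 of 46 control cells and in all 61 celecoxib 16 h cells, and 23 control cells lay below all celecoxib 16 h cells on the spike-in scale, 22 within their range and 1 above it.

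The transcription factors and regulators of the response rose by different amounts. ATF4, the central factor, was already expressed in all 46 control cells, with an E-value of 1.95 to 6.34 (median 4.54), and ran from 0 to 5.91 (median 4.39) in celecoxib 16 h cells. Its difference of -0.15 on the spike-in scale lay within the limit, and at the same total it rose by 1.18. DDIT3, which encodes CHOP, had a median of 3.30 in control cells (0 to 6.67) and of 4.63 in celecoxib 16 h cells (0 to 6.56), and rose by 1.12 on the spike-in scale and 2.22 at the same total. TRIB3, a pseudokinase that CHOP and ATF4 induce and that holds them back, was above 0 in 11 of 46 control cells (median 0, highest 3.96) and in 53 of 61 celecoxib 16 h cells (median 2.89, highest 6.01). Its rise was 2.29 on the spike-in scale and 2.99 at the same total, and 22 of 61 celecoxib 16 h cells lay above the highest control cell on the spike-in scale. CEBPB and CEBPG, bZIP partners of ATF4 and CHOP, rose by 0.66 and 0.60 on the spike-in scale and by 1.32 and 1.70 at the same total. NUPR1, a small stress-induced chromatin protein, was above 0 in 3 control cells, where it reached at most 0.16, and in 35 celecoxib 16 h cells, where it reached 4.33. It rose by 1.04 on the spike-in scale. ATF5 rose at the same total (0.71), and JDP2 (0.52) stayed within the limit.

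The upstream and feedback members of the list behaved otherwise. EIF2S1, the eIF2 subunit that the stress kinases phosphorylate, was the 1 member that fell at the same total, by 1.49. Its E-value was 4.01 to 7.47 in control cells (median 6.07) and 0 to 5.14 in celecoxib 16 h cells (median 3.56). On the spike-in scale, where the lower total moves every gene down, 42 of 61 celecoxib 16 h cells lay below the lowest control cell. How common such a count was among all genes was not summarised, here or for the other genes given one. The amino acid sensor kinase EIF2AK4 (GCN2) differed by 0.35 at the same total, and PPP1R15A (GADD34), the phosphatase subunit that restores eIF2, by -0.03, both within the limit. Within the limit too were SESN2 (0.46), VEGFA (0.58), the amino acid transporter SLC38A2 (-0.11), and CBS (-0.17) and CTH (-0.10), which make cysteine from homocysteine.

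**Figure D2:**
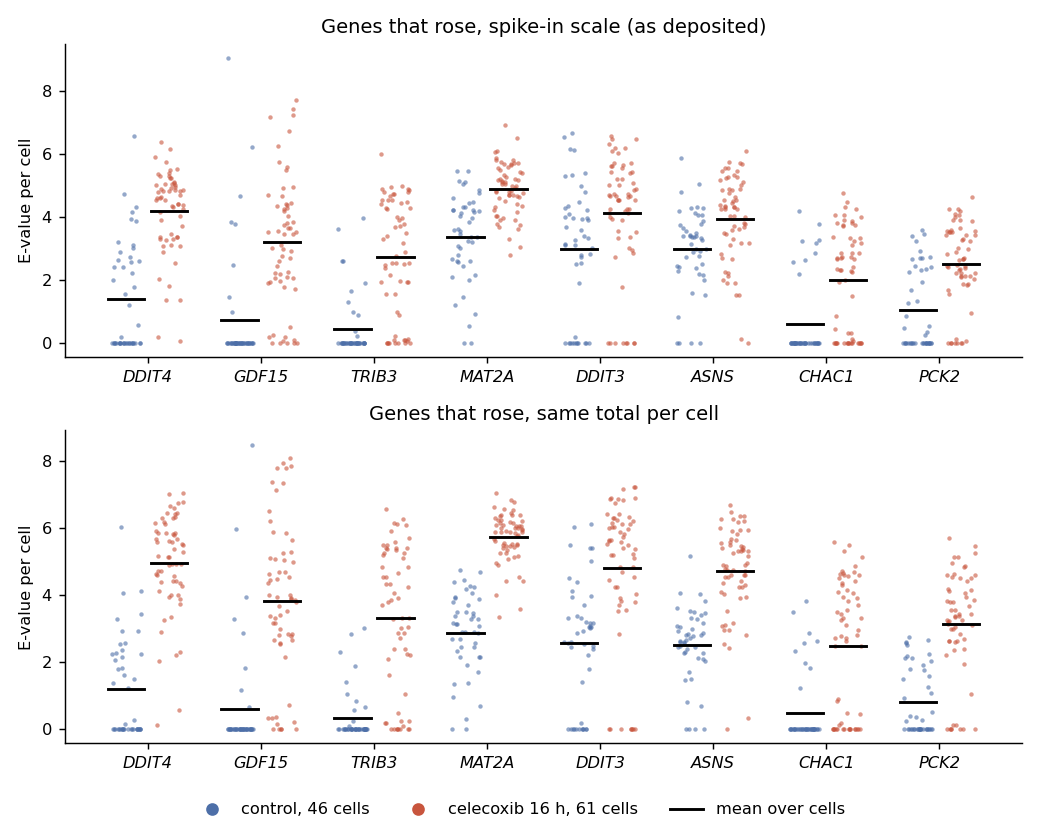
E-values per cell (vertical axes, log2 scale) of 8 genes that rose on both scales, in 46 control cells (blue) and 61 celecoxib 16 h cells (red), with the mean as a bar, on the spike-in scale (top) and at the same total per cell (bottom). The bars of DDIT4 stand at 1.40 and 4.19 on the spike-in scale, and GDF15 and TRIB3 are at 0 in most control cells.

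Genes for amino acid synthesis, uptake and turnover were among the members that rose. ASNS, asparagine synthetase (ENSG00000070669, hg38 chr7:97851677-97872542, minus strand), whose promoter stretch is shown above, had a median E-value of 3.28 in control cells (0 to 5.87) and 4.26 in celecoxib 16 h cells (0 to 6.09). It rose by 0.97 on the spike-in scale and by 2.21 at the same total. SLC3A2, the heavy chain shared by several amino acid transporters, was at 0 to 6.03 (median 3.85) in control and at 2.01 to 6.12 (median 4.69) in celecoxib 16 h cells, and rose by 0.80 and 2.16 on these scales. Its light chain SLC7A11, which takes up cystine, was above 0 in 12 of 46 control cells and 58 of 61 celecoxib 16 h cells, with medians of 0 and 1.3 and rises of 1.02 and 1.54. The other light chain on the list, SLC7A5, rose at the same total (0.74) and differed by 0.27 on the spike-in scale. CHAC1, which breaks down glutathione, was above 0 in 9 control and 44 celecoxib 16 h cells (medians 0 and 2.33) and rose by 1.39 on the spike-in scale and 2.00 at the same total.

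All 8 aminoacyl-tRNA synthetases of the list that were measured rose at the same total, namely SARS (2.04), AARS (1.51), IARS (1.51), MARS (1.43), EPRS (0.94), NARS (0.74), GARS (0.73) and WARS (0.64). These enzymes attach amino acids to tRNAs. On the spike-in scale SARS rose by 0.68 and GARS fell by 0.60, and the other 6 lay within the limit. SARS had E-values of 0.55 to 5.96 in control (median 4.58) and 2.00 to 6.73 in celecoxib 16 h cells (median 5.35). XPOT, which exports tRNA from the nucleus, rose by 0.65 at the same total. In the list for serine, glycine, asparagine and proline synthesis, which shares ASNS with the stress response, 8 of 12 members rose and 0 fell at the same total (median 1.02), beside ASNS for example PSAT1 (1.47), which makes phosphoserine. On the spike-in scale 2 rose and 2 fell (median -0.20). SHMT1 (-0.35) and ALDH18A1 (-0.14), cytosolic serine hydroxymethyltransferase and the first enzyme of proline synthesis, had the lowest values.

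GDF15, a secreted stress cytokine of the TGF-β family, was above 0 in 8 of 46 control cells and in 56 of 61 celecoxib 16 h cells. Its median E-value was 0 in control and 3.45 in celecoxib 16 h cells, but the highest value of all, 9.04, came from a control cell against 7.70 in celecoxib 16 h cells. The difference in means was 2.49 on the spike-in scale and 3.22 at the same total. STC2 (0.60) and KLHL24 (0.61) lay just past the limit at the same total.

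The arm of the response in the endoplasmic reticulum moved less. Of 29 chaperone and unfolded protein response genes, 5 rose and 3 fell at the same total (median 0.21), and 0 rose and 15 fell on the spike-in scale (median -0.68). HERPUD1, a degradation factor that is also on the stress response list and whose promoter holds the letters above, rose by 1.26 at the same total, HSPA5 (BiP), the main chaperone, by 1.16, and XBP1 by 0.69. MANF (-0.91) and CRELD2 (-0.65), secreted proteins that endoplasmic reticulum stress usually induces, fell at the same total. In HSPA5 the control cells ran from 2.31 to 6.75 (median 4.93) and the celecoxib 16 h cells from 1.70 to 7.72 (median 4.78) on the spike-in scale, where the difference of -0.19 lay within the limit.

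Several of the largest rises lay outside the stress response list. MAT2A, which makes the methyl donor S-adenosylmethionine (ENSG00000168906, hg38 chr2:85539168-85545281, plus strand), ran from 0 through a median of 3.55 to 5.47 in control and from 2.79 through 4.96 to 6.91 in celecoxib 16 h cells. It rose by 1.53 on the spike-in scale and 2.85 at the same total, and at the same total 55 of 61 celecoxib 16 h cells lay above the highest control cell. PCK2, the mitochondrial phosphoenolpyruvate carboxykinase, had medians of 0.13 and 2.62 and rose by 1.46 on the spike-in scale and 2.32 at the same total. TXNIP, which binds thioredoxin and limits glucose uptake, was above 0 in 15 control and 54 celecoxib 16 h cells, with medians of 0 and 2.44 and rises of 1.70 and 2.38. APOE, the lipid carrier apolipoprotein E, had medians of 1.3 and 4.04 and rose by 1.57 and 2.56. ASS1, which joins citrulline and aspartate on the way to arginine, was above 0 in 2 of 46 control and 39 of 61 celecoxib 16 h cells and rose by 1.62 and 2.03.

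Genes of cell division were among the largest falls, and the mitotic list held 6 of the 10 largest on either scale. Relative to the other RNA, that is at the same total, 20 of 30 genes for mitotic cyclins, kinases and the checkpoint fell and 0 rose (median -1.0), and on the spike-in scale 25 fell (median -1.87). In AURKB, PTTG1, RRM2, CCNB1, CDC20, UBE2C, CCNB2, CENPW, CDKN3 and TUBA1B, the 10 largest falls at the same total among genes above 0 in 30% or more of both groups' cells, the mean E-value fell by between 2.03 and 3.22. Replication genes fell in 21 of 44 cases (median -0.56), nucleotide synthesis genes in 8 of 11 (median -0.92), centromere and kinetochore genes in 18 of 30 (median -0.75, 1 rose) and mitotic kinesins and spindle genes in 9 of 23 (median -0.50), against 7.95% of all genes.

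Many mitotic genes carry a cell cycle homology region, TTTGAA, near their start, to which the MuvB complex binds. These letters, on either strand, were in the 250 bases before the RefSeq start of 10 of the 21 mitotic list members with a promoter in the table (47.6%), of 8.17% of the 7970 genes measured and of 13.6% of all RefSeq promoters. Of the members that fell, 6 of 15 with a promoter held them. The CCAAT box was in 16 of 21 (76.2%), against 36.6 and 33.0%. The stretches of 4 of the members are given as above, with the match in capitals, all on the strand of the gene.
CDC20: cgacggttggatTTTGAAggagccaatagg
CCNB2: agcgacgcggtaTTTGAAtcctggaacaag
PLK1: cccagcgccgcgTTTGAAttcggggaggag
CDK1: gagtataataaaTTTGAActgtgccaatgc
They lie on the plus strand at chr1:43358904-43358933, chr15:59105105-59105134, chr16:23678848-23678877 and chr10:60778158-60778187. In CCNB2 and PLK1 the stretch overlaps an exon of the gene in GENCODE version 44. For the replication genes, the E2F letters TTCGCGC were in 4 of 38 promoters (10.5%), against 3.71% of the genes measured and 1.93% of all promoters.

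AURKB, the kinase of the chromosomal passenger complex (ENSG00000178999, hg38 chr17:8204733-8210600, minus strand), had the largest fall. Its E-value was 0 to 7.73 in control cells (median 5.78) and 0 to 6.12 in celecoxib 16 h cells (median 0), with means of 5.09 ± 2.29 and 1.09 ± 1.78 (SD). It fell by 4.00 on the spike-in scale and by 3.22 at the same total. AURKB was above 0 in 40 of 46 control and 24 of 61 celecoxib 16 h cells, so cells with high values remained in both groups. CCNB1, cyclin B1, ran from 2.43 to 8.16 in control (median 6.56) and from 0 to 7.34 in celecoxib 16 h cells (median 3.01). On the spike-in scale, where the lower total moves every gene down, 27 of 61 celecoxib 16 h cells lay below the lowest control cell. CCNB1 fell by 3.60 on the spike-in scale and 2.53 at the same total. CCNB2 fell by 3.00 and 2.16. Its kinase partner CDK1 had medians of 4.05 and 1.78 and fell by 1.93 on the spike-in scale and 1.08 at the same total.

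The regulators of anaphase fell as well. PTTG1 (securin), which holds back separase, had a median of 6.32 in control (0 to 7.45) and 1.86 in celecoxib 16 h cells (0 to 7.35), and fell by 3.59 on the spike-in scale and 2.62 at the same total. CDC20, an activator of the anaphase-promoting complex, fell by 3.18 and 2.23, and UBE2C, a ubiquitin-conjugating enzyme of that complex, by 3.24 and 2.20. FZR1, the other activator of the complex, differed by 0.18 at the same total and INCENP, the scaffold of the chromosomal passenger complex, by 0.00, both within the limit. MKI67, the proliferation marker Ki-67, differed by -0.45 at the same total and was also within it. TOP2A, topoisomerase IIα, fell by 0.62 in mean E-value at the same total, but its direction turned with the ratio of linear means, which was 1.16.

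Among genes of S phase, RRM2, a subunit of ribonucleotide reductase, had a median of 4.71 in control (0 to 6.35) and 0 in celecoxib 16 h cells (0 to 4.98), and fell by 3.36 on the spike-in scale and 2.61 at the same total. TK1, thymidine kinase, fell by 2.48 and 1.67, and SHMT1 differed by -0.35 at the same total. MCM7 of the replicative helicase fell by 1.88 and GMNN (geminin), which blocks licensing, by 1.79 at the same total, while PRIM2, a primase subunit, differed by 0.04. At centromeres CENPW fell by 2.10 and ZWINT by 1.74, whereas MIS12 of the outer kinetochore rose by 0.66. Of 20 genes for cyclins, kinases and inhibitors of G1/S, 1 rose and 2 fell at the same total (median -0.12), CDK2 (-0.75) and the ubiquitin ligase subunit SKP2 (-1.06) being those that fell. CCND1, cyclin D1, differed by -0.15.

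The member that rose was CDKN1A (p21), an inhibitor of cyclin-dependent kinases. It was above 0 in 11 of 46 control and 35 of 61 celecoxib 16 h cells, with medians of 0 and 1.75, but the highest value, 8.75, was in a control cell. The mean E-value rose by 1.00 on the spike-in scale and 1.5 at the same total, whereas the ratio of linear means was 0.73 on the spike-in scale and 2.00 at the same total, so the direction on the spike-in scale turns with the mean that is used. Of 30 p53 targets, 4 rose and 0 fell at the same total (median 0.30), where 7.38% of all genes rose, with BTG1 (0.71), MDM2 (0.74) and GADD45A (0.95) beside CDKN1A.

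**Figure D3:**
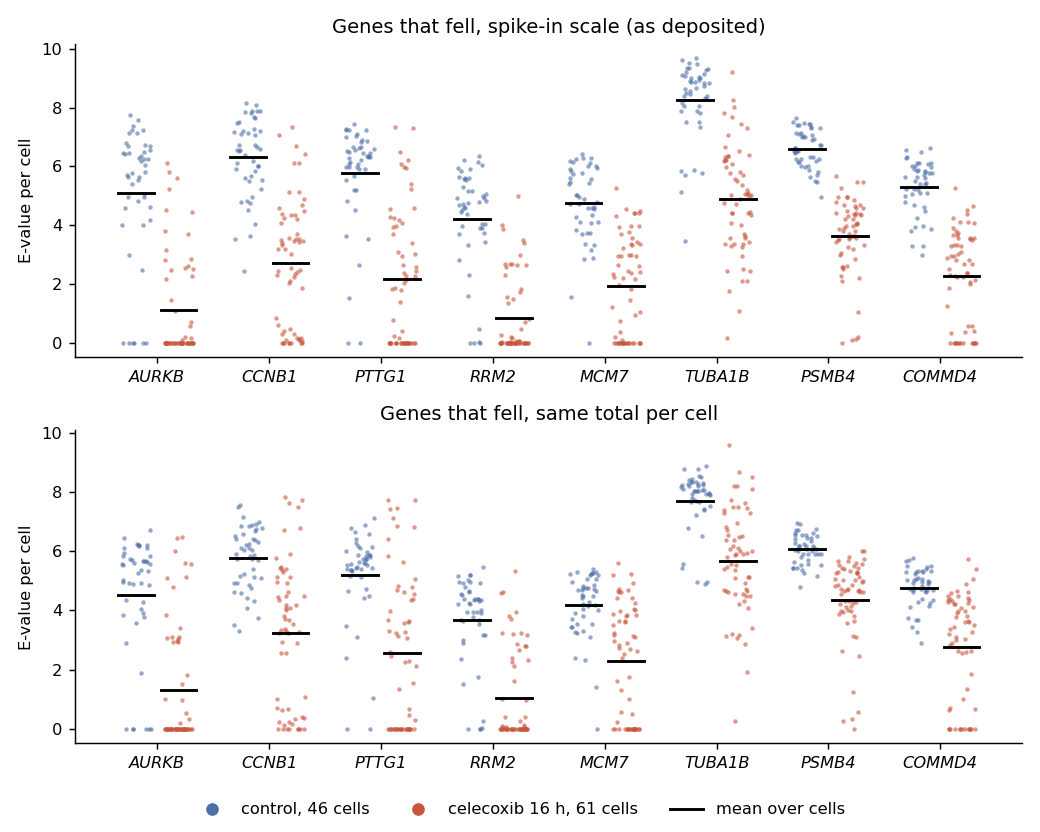
E-values per cell (vertical axes, log2 scale) of 8 genes that fell on both scales, in 46 control cells (blue) and 61 celecoxib 16 h cells (red), with the mean as a bar, on the spike-in scale (top) and at the same total per cell (bottom). The bars of AURKB stand at 5.09 and 1.09 on the spike-in scale, and those of PSMB4 at 6.60 and 3.63.

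Genes for the proteasome fell together. Of 31 subunits 27 fell at the same total with 0 up (median -0.83), and on the spike-in scale all 31 fell (median -2.18, against 43.9% of genes and a median of -0.48). PSMB4, a subunit of the 20S core (ENSG00000159377, hg38 chr1:151399560-151401937, plus strand), ran from 4.95 through a median of 6.57 to 7.66 in control and from 0 through 3.88 to 5.67 in celecoxib 16 h cells. It fell by 2.97 and 1.70. On the spike-in scale, where the lower total moves every gene down, 55 of 61 celecoxib 16 h cells lay below the lowest control cell. PSMB7, which carries the trypsin-like activity, fell by 2.86 and 1.49. PSMD7 (0.29) and PSMD8 (0.20) of the regulatory particle were within the limit at the same total. Proteasome genes are abundant, and 22.8% of the 2416 genes of highest control level fell at the same total. On the spike-in scale the median over those 2416 genes was -1.38.

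Tubulin genes also fell, 7 of 17 genes for tubulins and their folding factors at the same total (median -0.50, 0 rose). TUBA1B, an α-tubulin, was at 3.46 to 9.68 in control (median 8.63) and at 0.15 to 9.22 in celecoxib 16 h cells (median 5.01), and fell by 3.37 on the spike-in scale and 2.03 at the same total. TUBA1C fell by 2.94 and 1.74 and the β-tubulin TUBB by 2.66 and 1.43. Tubulin genes are near-identical in much of their sequence, so how RSEM divided reads among them is uncertain for each. Of the 14 subunits of the CCT chaperonin, which folds tubulin and actin, and of prefoldin, 5 fell at the same total (median -0.47), for example CCT2 (-0.93) and TCP1 (-0.92), and 0 rose.

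Ribosomal and respiratory genes fell on the spike-in scale without exception, against 43.9% of all genes. Falls on that scale were larger among abundant genes, with a median of -1.38 over the 2416 genes of highest control level. The share of those genes that fell on that scale was not counted. At the same total, 7.95% of all genes and 22.8% of the 2416 genes of highest control level fell. All 78 cytosolic ribosomal protein genes fell on the spike-in scale (median -1.66), and at the same total 9 fell and 0 rose (median -0.28), from FAU (-1.38) to RPS27 (0.33). All 38 complex I genes fell on the spike-in scale (median -1.58), and 6 fell and 0 rose at the same total (median -0.22). The lowest was NDUFS5, at -1.0, and the highest was NDUFA13 (0.50). For NDUFS5, 57 of 61 celecoxib 16 h cells lay below the lowest control cell on the spike-in scale, where the lower total moves every gene down. In complexes II to V, 39 of 39 fell on the spike-in scale (median -1.63), and at the same total 12 fell, ATP5G1 of the ATP synthase furthest (-1.05), and 1 rose, COX7A2L (0.61), a factor of supercomplex assembly (median -0.26). Of 22 glycolysis genes 5 fell and 2 rose at the same total (median -0.20), among them lactate dehydrogenase LDHA (-1.21) and GAPDH (-1.03) on one side and the lactate transporter SLC16A1 (0.84) and the glucose transporter SLC2A3 (0.75) on the other.

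**Figure D4:**
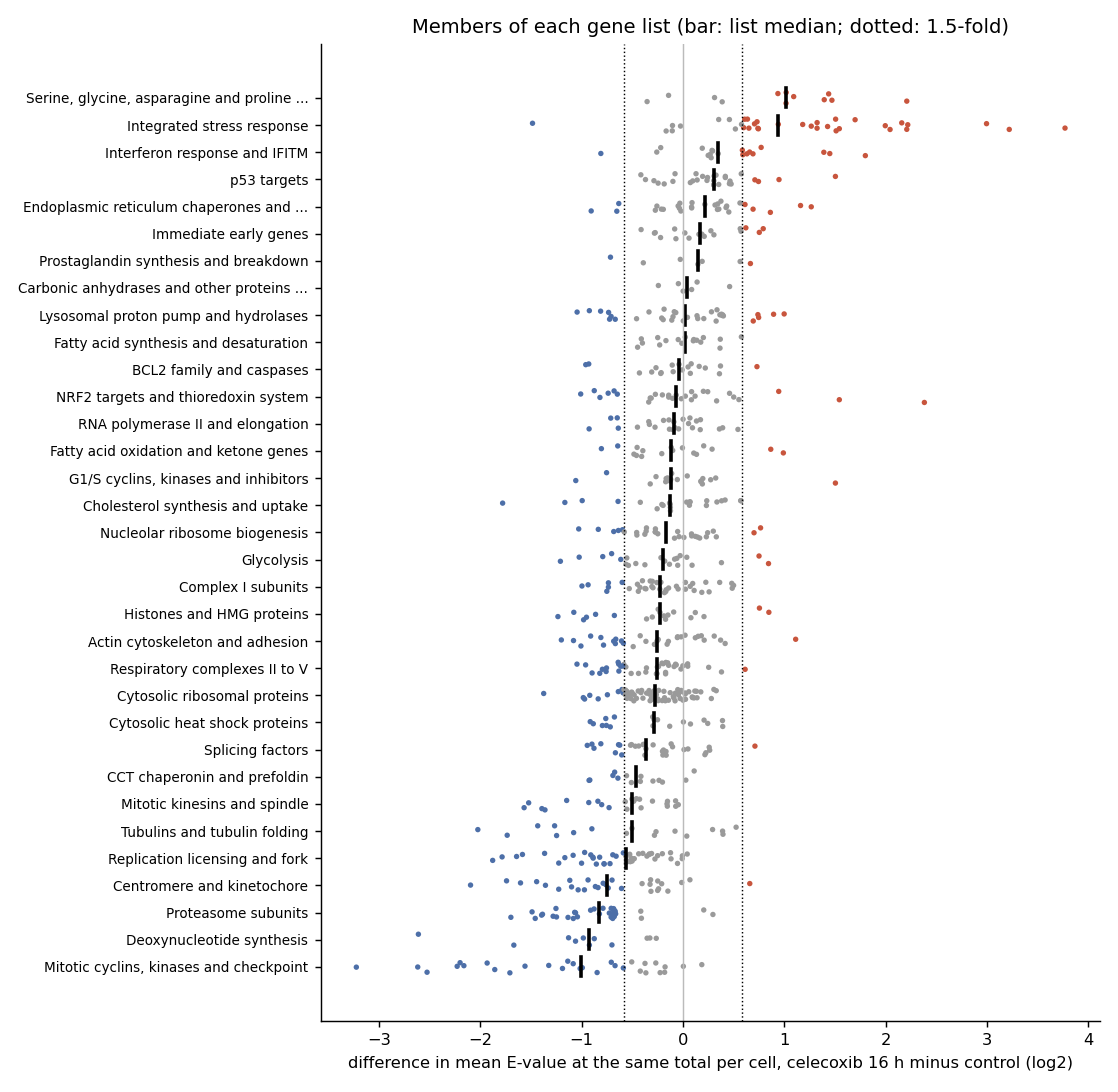
Difference in mean E-value at the same total per cell, celecoxib 16 h minus control (horizontal axis, log2), for each member of 33 gene lists (rows, ordered by median). Red points are past 1.5-fold up, blue points past 1.5-fold down, black bars are list medians. The lists for serine, glycine, asparagine and proline synthesis and for the integrated stress response have the highest medians, 1.02 and 0.94, and the mitotic list has the lowest, -1.0.

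Genes close to the drug's known target can be read against the 84.7% of all genes that lay within the limit at the same total. Of 7 genes of prostaglandin synthesis and breakdown in the table, PLA2G4C, a cytosolic phospholipase A2, rose by 0.66 at the same total and PTGES3, a prostaglandin E synthase that is also the HSP90 cochaperone p23, fell by 0.72. PLA2G4C was above 0 in 8 control cells, reaching at most 1.09, and in 25 celecoxib 16 h cells, reaching 4.06. Within the limit were PTGES2 (-0.39), PTGDS (-0.03), PTGR2 (0.15), ABCC4 (0.19) and PTGR1 (0.56). PTGS1 and PTGS2, the cyclooxygenases themselves, were sought but were not in the table, so their levels could not be read. In all, 14 of the 21 genes on the prostaglandin list were not in it. The 6 genes of other proteins named as targets of celecoxib were all within the limit at the same total, namely the carbonic anhydrases CA2 (0.14), CA5B (0.46) and CA11 (0.00), the calcium pump ATP2A2 (-0.05), and the kinases AKT1 (-0.24) and PDPK1 (0.08).

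Among genes of cholesterol synthesis and uptake, 4 of 23 fell and 0 rose at the same total, where 7.95 and 7.38% of all genes did (median -0.12, against 0.03 over all genes), and 10 fell on the spike-in scale (median -0.53). The enzymes that fell were ACAT2 (-1.78), IDI1 (-1.17), FDPS (-1.0) and DHCR7 (-0.64). The synthase HMGCS1 (-0.13) and the regulators SREBF2 (0.23), SCAP (0.23) and INSIG1 (-0.12) lay within the limit. NPC1 (0.57) and MSMO1 (0.57) were nearest to it from below. The sterol regulatory element letters TCACNCCAC were in 1 of 17 promoters, against 0.903% of the genes measured. Of 17 genes of fatty acid synthesis and desaturation, 0 were past the limit at the same total (median 0.02), with SCD highest at 0.58.

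The same genes can be read beside the other conditions, all of which share the 46 control cells, so the values below are set side by side and not compared by a test. Stress response members that rose at the same total numbered 26 at celecoxib 16 h, 23 at celecoxib 2 h, 16 with both drugs at 16 h, 2 at paclitaxel 16 h and 6 at paclitaxel 48 h, where 713, 320, 575, 135 and 317 genes rose in all. DDIT4 differed by 3.77, 2.48, 2.20, 0.78 and 1.84 in that order, and TRIB3 by 2.99, 1.43, 1.42, 0.17 and 0.37. ASNS differed by 2.21 at celecoxib 16 h, 2.85 at 2 h, 2.40 with both drugs, 0.22 at paclitaxel 16 h and 1.5 at paclitaxel 48 h. MAT2A differed by 2.85 at 16 h of celecoxib and lay within the limit at 2 h (0.47) and with both drugs (0.21), while at paclitaxel 16 h it fell by 0.96 and at paclitaxel 48 h it differed by 0.03. CDKN1A, too, differed by 0.11 at 2 h and -0.11 with both drugs and by 0.40 at paclitaxel 16 h, and rose by 1.96 at paclitaxel 48 h.

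The falls can be set side by side in the same way. Of 30 mitotic genes 20 fell at celecoxib 16 h, at the same total, 17 at 2 h, 18 with both drugs, 14 at paclitaxel 16 h and 18 at paclitaxel 48 h, where 7.95, 8.11, 5.79, 10.0 and 5.77% of all genes fell. For the proteasome these counts were 27, 14, 13, 10 and 13 of 31, with medians of -0.83, -0.56, -0.53, -0.35 and -0.55. AURKB fell by 3.22, 2.00, 2.32, 1.68 and 1.87 in that order. TUBA1B fell by 2.03 at celecoxib 16 h and by 1.44 at 2 h, but differed by -0.14 with both drugs and by -0.08 at paclitaxel 16 h, and fell by 0.78 at paclitaxel 48 h.

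Single cells were then read one by one, at the same total, as the mean E-value over a list. The stress response mean ran from 1.28 through a median of 1.80 to 2.60 in the 46 control cells and from 1.75 through 2.97 to 3.75 in the 61 celecoxib 16 h cells, of which 60 lay above the control median and 49 above the highest control cell. Of the 7 genes ATF4, DDIT3, TRIB3, ASNS, DDIT4, CHAC1 and GDF15, all were above 0 in 35 of 61 celecoxib 16 h cells and in 1 of 46 control cells, with somewhat fewer genes detected per celecoxib 16 h cell in all. No celecoxib 16 h cell had fewer than 4 of them, against 21 control cells. TRIB3, CHAC1 and GDF15 were above 0 in 11, 9 and 8 control cells, too few to pass the authors' filter on control cells alone. They were kept because another condition passed it, which favours higher counts outside the control. The 7 genes belong to the stress response list, chosen with earlier results of these data known. These counts and the stress response mean are therefore descriptive and not independent evidence. The proteasome mean was 5.00 to 6.28 in control cells (median 5.93) and 4.28 to 5.70 in celecoxib 16 h cells (median 5.05), with all 61 below the control median and 29 below the lowest control cell.

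The mitotic mean was more spread out. It ran from 0.71 to 4.13 in control cells (median 3.03) and from 0.45 to 4.79 in celecoxib 16 h cells (median 1.57), where 51 of 61 cells lay below the control median, 8 below the lowest control cell and 3 above the highest. The replication mean had medians of 2.26 and 1.32, with 26 celecoxib 16 h cells below the lowest control cell and 2 above the highest. Cells with high stress response means were found at both ends of the mitotic mean. Over the 61 celecoxib 16 h cells the correlation of the stress response and mitotic means was weak (Pearson's r 0.17, Spearman's rho 0.07), and these cells share 1 capture run and the same rescaling. In the same cells the mitotic mean went with the genes detected (r 0.37) and the stress response mean less so (r 0.10). In the control cells these values were 0.68 and 0.38. With the log2 total, the mitotic mean had r 0.30 in celecoxib 16 h and 0.68 in control cells. The stress response mean had r 0.01 and 0.31, so rescaling did not remove every link with the total.

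**Figure D5:**
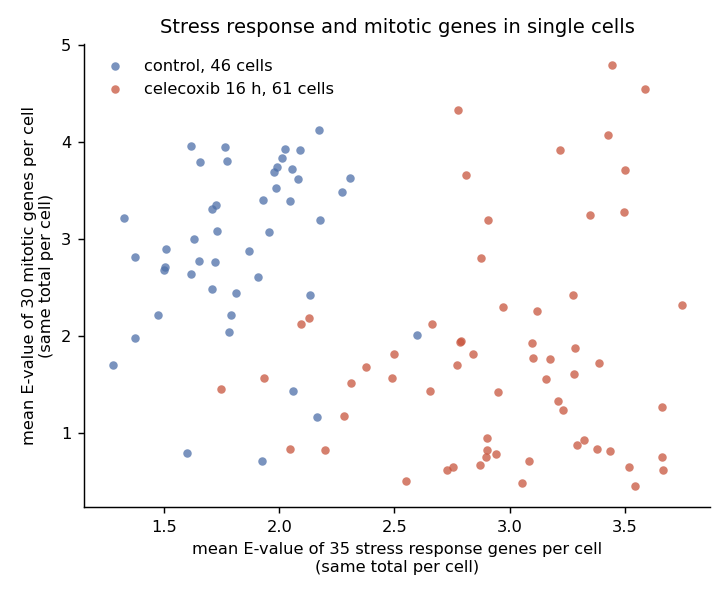
Mean E-value per cell at the same total of the 35 stress response genes (horizontal axis) and the 30 mitotic genes (vertical axis) in 46 control cells (blue) and 61 celecoxib 16 h cells (red). The celecoxib 16 h cells lie to the right, with 49 beyond the highest control value of 2.60, and spread from 0.45 to 4.79 on the mitotic axis.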

How the data were processed

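A2780 cells under 6 conditions were captured singly, 1 Fluidigm C1 run per condition, and sequenced after SMART-seq2. The authors' steps were adapter trimming (Trim Galore), TPM estimation (RSEM 1.3.0, Bowtie2) against hg38 transcripts of GENCODE 28 joined with 3 spike-ins, division by the highest spike-in of the cell, and removal of cells poor in housekeeping genes and of genes found in no more than 30% of cells in every condition. The deposited E-values are log2 values with N as the scaled TPM and 10 as the pseudocount, E = log2(N/10 + 1), given to 3 decimals. They hold no counts, so depth in reads is unknown and no doublets were called.

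N was recovered from E, and each cell was also rescaled to the median total over all cells of the table. Differences are celecoxib 16 h minus control mean E, and a gene past log2 of 1.5 was counted as risen or fallen. Differences understate changes of genes with low values, because of the pseudocount. With 1 run per condition no test, p-value or SE was made. The members and the 33 gene lists were chosen with earlier results of these data known. Genes were named by rule. The rule took the 10 largest rises and falls on each scale among genes above 0 in 30% or more of both groups' cells, the 5 largest rises and falls among genes above 0 in under 30% of control or celecoxib 16 h cells, the 2 highest and lowest members of each list, 28 fixed genes (25 measured), and the stress response, cholesterol, prostaglandin and celecoxib target lists whole. BTG1, PLK1, the markers, and the genes with opposite values at 2 and 16 h fall outside it and, markers apart, were chosen after their values were seen. All 205 genes matched GENCODE 44 by Ensembl identifier. The steps were tested on simulated data. The alternatives were linear means, 1 as the pseudocount, detection in 30 or 50% of either group's cells, a 2-fold limit, medians over cells, cells with 6000 to 7000 genes detected, cells without the tenth at each end of the total, and 3 other rescalings (by the median ratio, without the 50 most abundant genes, and to the control median). Leaving out the control cell in the suppressive state was chosen after seeing the data. The scripts ran on Python 3.11.15 with pandas 2.3.3, numpy 2.4.6, matplotlib 3.10.9 and scipy 1.17.1.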

Additional observations from a re-analysis of the deposited data

Results flagged for a closer look

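At the same total per cell, 9 of all 9664 genes searched were past 1.5-fold in opposite directions at 2 and 16 h of celecoxib, and the difference between the time points was not tested. The genes were chosen for this pattern, both time points share the control cells, and each time point is 1 capture run. Of these, 7 were up at 16 h and down at 2 h. ID1 and ID2, inhibitors of basic helix-loop-helix transcription factors, differed from control by 0.69 and 0.62 at 16 h and by -0.72 and -0.77 at 2 h. HYAL2, a hyaluronidase of the cell surface, differed by 0.72 at 16 h and -0.95 at 2 h, and the small GTPase RHOG by 0.61 and -0.74. PIGC, an enzyme of GPI anchor synthesis, differed by 0.68 and -0.73, FAM89B by 0.64 and -0.91, and CXorf40B by 0.61 and -0.60. The other 2 were down at 16 h and up at 2 h. UCHL1, a deubiquitinating enzyme, differed by -0.67 at 16 h and 0.60 at 2 h, and COX6C, a subunit of cytochrome c oxidase, by -0.64 and 0.67. On the spike-in scale all 9 were below control at 16 h, from -0.13 for CXorf40B to -2.02 for COX6C.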

How the results depend on the processing

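The log2 ratio of the median totals stayed between -1.24 and -1.63 in the alternatives run. The 37 genes up and 4241 down on the spike-in scale became 267 and 7337 with a ratio of linear means, 231 up with a pseudocount of 1, 13 and 2426 at a 2-fold limit, 106 up with medians over cells and 97 up in cells with 6000 to 7000 genes detected. The 713 up and 768 down at the same total became 3413 up with a ratio of linear means, 1463 and 2141 with a pseudocount of 1, 162 and 192 at a 2-fold limit, and 1324 down with medians. The share of rises among genes past the limit, 48.1%, was 81.3% with linear means, where the median over all genes shifts to 0.33, 60.5% in cells with 6000 to 7000 genes detected and 60.2% with the median ratio. The causes were not tested. Of 33 list medians, 23 on the spike-in scale and 6 at the same total were past the limit, 0 of these changed sign and 1 on each scale came within it in some alternative. Of 205 named genes, 135 and 130 were past it, and 21 and 23 came within it in some alternative. Signs turned in 3 genes. With linear means CDKN1A (-0.46) and IFITM1 (-0.58) turned on the spike-in scale and TOP2A (0.22) at the same total, and TOP2A also turned in cells with 6000 to 7000 genes detected (0.21). Without the control cell in the suppressive state the counts were 36 and 4360, and 711 and 792. No paired analysis was possible because the cells carry no replicate number shared between conditions. With 1 run per condition the drug and the run cannot be told apart.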

Other observations

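Other gene groups moved in celecoxib 16 h cells at the same total, against 7.38% of genes up and 7.95% down. Of 19 interferon response and IFITM genes 9 rose and 1 fell (median 0.35, spike-in median -0.06). IFITM1 and IFITM2, membrane proteins that restrict virus entry, rose by 1.80 and 1.45, IFITM1 from a median E-value of 4.45 in control (0 to 8.95) to 4.82 (0 to 7.37) on the spike-in scale. The ratio of linear means of IFITM1 on that scale was 0.67, so its direction there turns with the mean used, and IFITM genes are similar enough that the division of reads among them is uncertain. IRF3, the factor that starts interferon production, fell by 0.81. IFITM1 also rose at celecoxib 2 h (1.95), with both drugs (2.31), at paclitaxel 16 h (1.32) and at paclitaxel 48 h (2.80), all against the same control cells.

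Of 18 cytosolic heat shock genes 7 fell and 0 rose (median -0.29), with HSP90AA1 (-0.89) and its cochaperone CHORDC1 (-0.92) lowest and HSPB1 (0.39) and DNAJB1 (0.39) highest. Of 29 NRF2 targets and thioredoxin genes 3 rose and 6 fell, thioredoxin TXN by 0.88, while haem oxygenase HMOX1 differed by -0.07. Of 34 lysosomal genes 5 rose, among them sialidase NEU1 (1.00) and LAMP2 (0.89), and 7 fell, among them galactosidase GLA (-1.05) and the proton pump subunit ATP6V1E1 (-0.92). Of 17 fatty acid oxidation genes 2 rose, ECI1 (0.99) and HADHA (0.87), and 2 fell, ECI2 (-0.81) and ACAA2 (-0.64). Of 19 histone and HMG genes the linker histones H1F0 (0.85) and H1FX (0.75) rose and 6 fell, HMGB3 (-1.24) and HMGB2 (-1.08) furthest. Of 31 splicing factor genes 8 fell and 1 rose, SRSF4 (0.71). Of 30 nucleolar genes 5 fell, NPM1 (-1.03) and fibrillarin FBL (-0.84) furthest, and NOP2 (0.76) and BYSL (0.70) rose. Of 31 actin and adhesion genes 11 fell, TPM3 (-1.20) and ANXA2 (-1.08) furthest, and 1 rose, S100A11 (1.11). Of 25 RNA polymerase II and elongation genes 4 fell and 0 rose (median -0.09). Of 18 immediate early genes 3 rose and 0 fell, with SPRY2 (0.79) and DUSP6 (0.75) highest and MYC at -0.28. Of 19 genes of the BCL2 family and caspases 1 rose and 2 fell (median -0.04). Single genes with large changes outside these lists were COMMD4 (-1.99) and the RNA-binding protein HNRNPDL (-1.79), which fell, and BEX2 (1.67), CCPG1 (1.74) and C1orf54 (1.94), which rose. CCPG1 overlaps a read-through transcript, so its share of the reads is uncertain.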
